A study of Talpa occidentalis with 24 samples.

Results

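FGF9 and its surroundings were described in 2 genomes. In the mouse, chromatin states of testis and ovary were read over the 400 kb of chromosome 14 that begin at base 58500001 of build mm9, with the gene position taken 190 kb into it. The window holds 2000 of the 13274547 bins of 200 bp that each mouse segmentation covers. In the Iberian mole, Talpa occidentalis, the FGF9 gene model on assembly talOcc3 and all gene models within 2 Mb of it on its scaffold were taken, 31 neighbours among 23336 deposited models.

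The series is a chromatin immunoprecipitation sequencing (ChIP-seq) study on regulatory elements in the gonads of moles, with mouse gonads set beside them. The mouse testis and ovary segmentations were made from gonads of embryos at embryonic day 13.5, per the labels' protocols. The sources used here give neither their strain and genotype nor the number of embryos, and no mouse library is among the labelled samples. The labelled samples are 24 mole libraries, all wild type and from postnatal day 7. They cover 3 tissues, the testicular part of the ovotestis, the testis and the ovarian part of the ovotestis, with 4 histone marks (H3K27ac, H3K4me1, H3K4me3 and H3K27me3) and 2 libraries for each mark in each tissue. The mole state tables lie on another assembly, talOcc4, and were not used here, so the mole gene models carry no tissue values. The labelled gonads could not be set against marker genes, since no expression values and no mouse gene models were used.

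FGF9 is a secreted fibroblast growth factor that binds FGF receptor tyrosine kinases on neighbouring cells. In the mouse it is expressed in the early gonad of both sexes and then in the XY gonad, where it helps to keep Sox9 on and Wnt4 off while Sertoli cells form. XY mice without Fgf9 can develop ovaries, and the gene is counted among the testis-promoting genes. A bivalent promoter is one that carries both H3K4me3, a mark of promoters, and H3K27me3, the mark laid down by Polycomb complexes, and it is known from genes that are silent but can be switched on.

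Each mouse gonad has 1 segmentation, made by the authors, so no value below has a replicate check and no test between testis and ovary was run. The depth behind the calls is unknown. The 7 state names are used as the authors gave them, and no source used here says how each relates to the 4 marks. Whole gonads hold several cell types, so a state carried by some of the cells and one carried by all of them cannot be told apart. The same holds for 2 marks on the same chromatin and 2 marks in different cells.

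The bivalent promoter state lay on both sides of the gene position in both gonads. All bivalent bins of the window lay between 1.8 kb below and 6.2 kb above the gene position. The testis had 4 bivalent segments, together 4800 bp over a span of 6 kb, from 58689201 to 58695200. The ovary had 3, together 6800 bp over a span of 8 kb, from 58688201 to 58696200. Both gonads were bivalent over 4600 bp, which is 95.8% of the bivalent bases of the testis and 67.6% of those of the ovary. The bivalent domain of the testis thus lay almost wholly inside that of the ovary, which reached 1 kb further on each side.

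The longest bivalent segment ran from 58690801 to 58693800 in the testis, 3000 bp, and from 58690201 to 58695000 in the ovary, 4800 bp. Of all 14526 bivalent segments of the testis, 2.11% were as long or longer, and of the 9492 of the ovary 7.61% were. Each was picked as the longest of the window, so these shares do not say how many windows hold one as long. In the testis a single bin of 200 bp inside the domain, 58690601 to 58690800, was in the promoter state. It was bivalent in the ovary, where no bin of the domain was in the promoter state. At the gene position itself, between the bivalent segments, 400 bp were poised enhancer in the testis and gap in the ovary.

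Over the genome a smaller share of the bivalent segments had a counterpart in the other gonad. Of the bivalent segments of the testis over all chromosomes, 35.8% shared a base with a bivalent segment of the ovary, and 49.5% of those of the ovary shared one with the testis. At Fgf9, 4 of 4 testis segments and 2 of 3 ovary segments did. The ovary segment that did not was the outermost, 400 bp from 58695801 to 58696200, where the testis was in the poised enhancer state. The segments at Fgf9 are pieces of 1 domain and not separate cases. Their median length was 700 bp in the testis and 1600 bp in the ovary, against 400 bp and 1000 bp over the genome. Longer segments share a base more readily, so the shares are not like for like. The bivalent state covered 0.369% of the genome in the testis and 0.671% in the ovary. Of 6235 adjoining windows of 400 kb, 44.2% held some bivalent state in both gonads. Only the testis held some in 1187 of the 6235 windows, and only the ovary in 199. The ovary had more bivalent bases in 2021 windows and the testis in 1930, and 2093 windows held none in either gonad. The counts of 2021 and 1930 include windows where only the ovary or only the testis held some. Whether the larger genome share of the ovary bears on its larger domain at Fgf9 was not tested. As many bivalent bases as at Fgf9 were found in 439 windows in the testis and in 673 in the ovary.

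**Figure D1:**
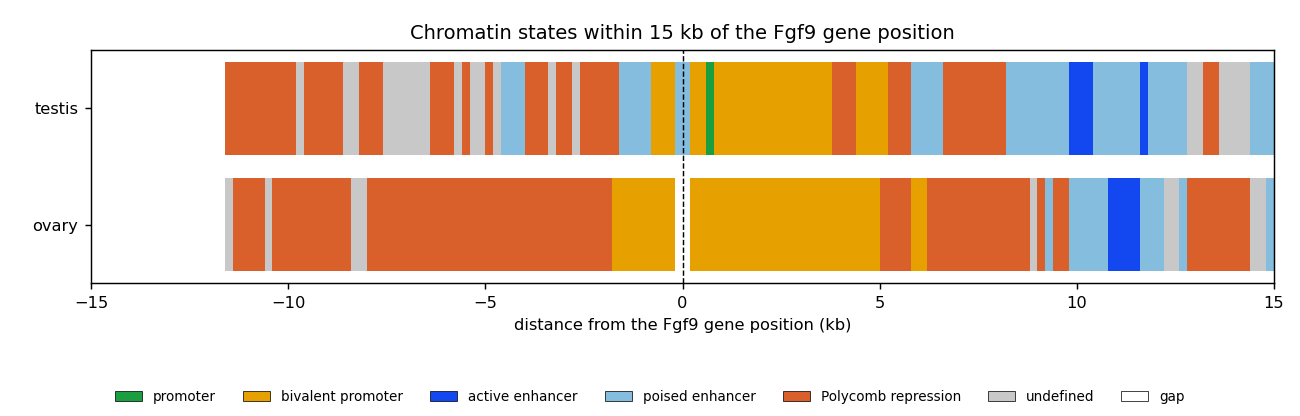
Chromatin states of mouse testis (upper row) and ovary (lower row) by distance in kb from the Fgf9 gene position, shown by the dashed line. Each colour is 1 of the 7 states, and white is the gap state; the bivalent domain spans 6 kb in the testis and 8 kb in the ovary, and the Polycomb state beside it is interrupted in the testis.

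The chromatin beside the bivalent domain was in the Polycomb state over more bases in the ovary. Within 10 kb of the gene position, the Polycomb state covered 7600 bp in the testis and 11800 bp in the ovary, which is 38% and 59%. The poised enhancer state covered 4200 bp there in the testis and 400 bp in the ovary. The longest Polycomb segment of the ovary window adjoined the bivalent domain, from 58682001 to 58688200, and was 6200 bp long. Of the 1270766 Polycomb segments of the ovary, 0.141% were at least as long. It was picked as the longest of 173 in the window, so this share does not say how many windows hold such a segment. The longest Polycomb segment of the testis window lay further off, at 58669801 to 58671600, with 1800 bp, a length that 3.23% of the testis segments reached. It was likewise the longest of 166.

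Over the 100 kb centred on the gene position, the testis was more active and the ovary more Polycomb-covered. The active states, promoter and active enhancer together, covered 6.20% in the testis and 2.0% in the ovary. The Polycomb state covered 23% in the testis and 34.8% in the ovary, and the poised enhancer state 35.2% in the testis and 26% in the ovary. Of the 34800 bp that were Polycomb in the ovary here, 39.7% were also Polycomb in the testis, 31.6% were undefined there and 25.9% were poised enhancer. Of the 6000 bp in the active enhancer state in the testis here, 83.3% were poised enhancer in the ovary. Over the whole 400 kb window that share was 29.0%.

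Differences of this size were not rare in the genome. Over 24874 windows of 100 kb the median difference in active coverage, testis minus ovary, was -0.40 percentage points, and the middle 90% of windows lay between -17 and 6.20. The difference of 4.20 points at Fgf9 was reached or passed by 8.28% of windows. The difference of -11.8 points in Polycomb coverage was reached or passed by 9.65% of windows, and the median over all windows was -0.60. Among the 3671 windows with a bivalent bin in both gonads, the shares were 9.43% and 9.75%. The difference in poised enhancer coverage, 9.20 points, was reached or passed by 12.9% of all windows and by 22.9% of these 3671. Its median was 0.80 points over all windows and 4.20 among the 3671. No replicate shows how much of such a difference is noise in the calls.

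On the whole 400 kb the order of the gonads in active coverage was the other way round. The active states covered 18.75% of the window in the testis and 20.15% in the ovary, a difference of -1.40 points, against 4.20 points over the central 100 kb. Over the genome they covered 10.4% in the testis and 12.7% in the ovary. Most of this active chromatin lay well below the gene position. In the 190 kb below it, the active states covered 32.4% in the testis and 36.9% in the ovary. In the 210 kb above it they covered 6.38% in the testis and 4.95% in the ovary. Among the 20 windows of 20 kb, active coverage below the gene was higher in the testis in 1 of 9 windows and higher in the ovary in 6. At and above the gene it was higher in the testis in 6 of 11 windows and in the ovary in 3.

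**Figure D2:**
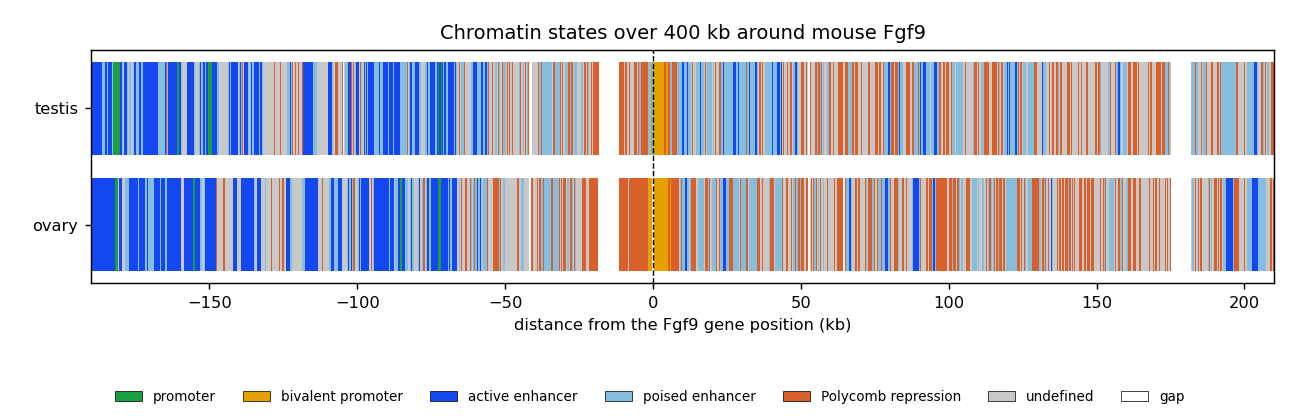
Chromatin states of mouse testis (upper row) and ovary (lower row) over the 400 kb window, by distance in kb from the Fgf9 gene position (dashed line), with 1 colour per state and the gap state in white. In the 190 kb below the gene, active enhancer state covers 29.7% in the testis and 35.3% in the ovary. In the 210 kb above the gene it covers 6.29% in the testis and 4.86% in the ovary.

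A stretch without active chromatin separated the active block from the gene in both gonads. No bin between 58639801 and 58690600, 50.8 kb long, was active in either gonad. It ended 0.6 kb above the gene position, so the start of the bivalent domain lay in it. In the testis it was 30.7% Polycomb, 29.5% undefined, 22.4% poised enhancer and 15.4% gap. In the ovary it was 39.0% Polycomb, 26.0% undefined, 15.4% poised enhancer and 15.7% gap. In the ovary alone, the active-free stretch was longer, 69 kb from 58631801 to 58700800, and passed over the whole bivalent domain. Within it the testis had active enhancer state over 2.90% and promoter state over 0.290%.

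The other states of the window differed from the genome in the same way in both gonads. The active enhancer state covered 17.4% in the testis and 19.3% in the ovary, against 9.65% and 12.0% of the testis and ovary genomes. The poised enhancer state covered 28.55% in the testis and 20.3% in the ovary, with 16.8% and 15.1% over the genomes in the same order. The Polycomb state covered 19.3% in the testis and 24.6% in the ovary, with 25.7% and 27.8% over the genomes. Polycomb coverage of the window was within the middle 90% of the 400 kb windows in both gonads, which ran between 10.25% and 44.4% in the testis and between 8.635% and 51.2% in the ovary. The same was true of poised enhancer coverage, with a range between 2.585% and 33.8% in the testis and between 5.75% and 27.9% in the ovary.

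**Figure D3:**
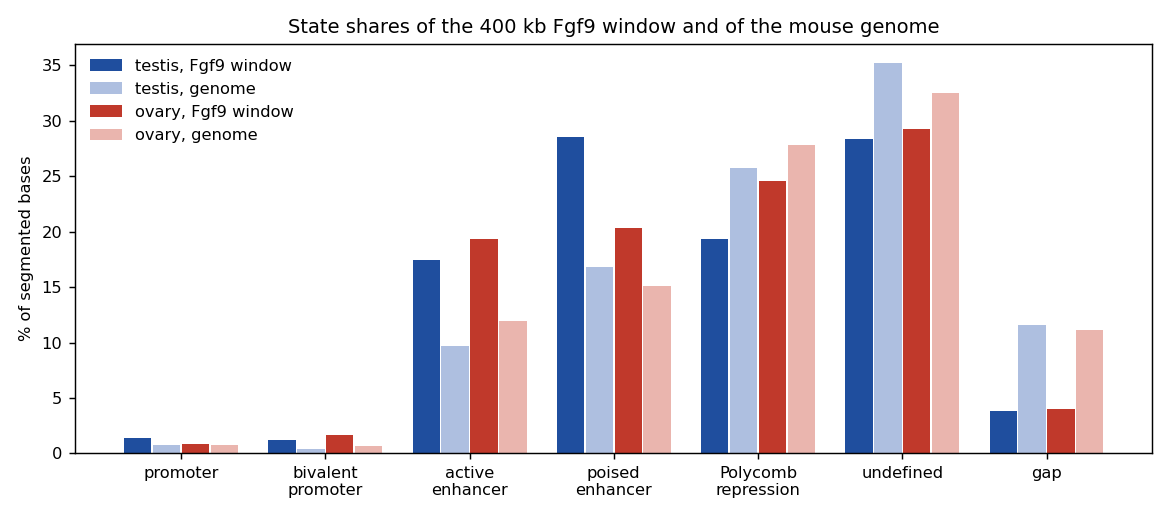
Percent of segmented bases in each of the 7 states, for testis (blue) and ovary (red), in the 400 kb Fgf9 window (dark bars) and over the mouse genome (light bars). The bars have no error, since each gonad has 1 segmentation; active and poised enhancer shares are higher in the window than in the genome in both gonads, and Polycomb shares are lower.

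Along the window, Polycomb coverage was highest at the gene in the ovary and further above it in the testis. In the 20 kb around the gene position it covered 38% in the testis and 59% in the ovary, which in the ovary was the highest of the 20 windows. In the testis the highest window, with 42%, began 50 kb above the gene position, and there the ovary also had 42%. At and above the gene Polycomb coverage was higher in the ovary in 7 of 11 windows, equal in 2 and higher in the testis in 2. Below the gene each gonad was higher in 4 of 9 windows. The windows from 10 to 50 kb above the gene position held 11% and 12% of Polycomb state in the testis, with 25% and 30% in the ovary, and 60% and 48% of poised enhancer in the testis, with 50% and 40% in the ovary. From 90 to 110 kb above it, Polycomb coverage was 21% in the testis and 49% in the ovary.

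**Figure D4:**
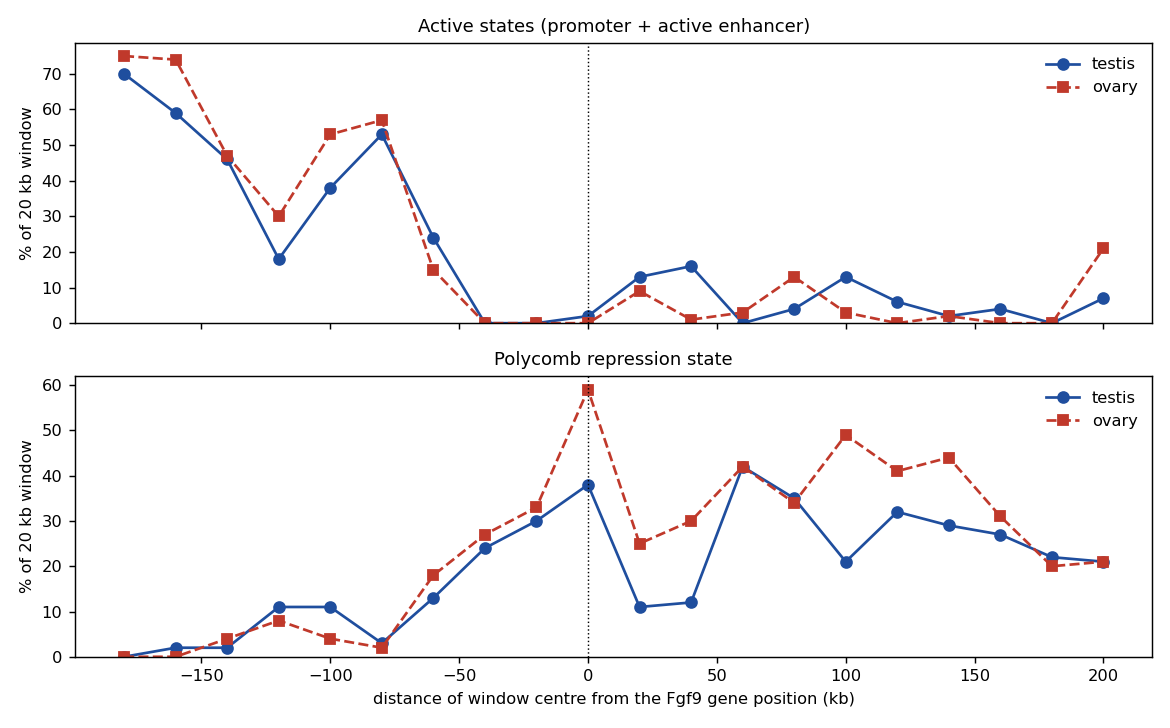
Percent of each 20 kb window in the active states (top) and in the Polycomb state (bottom), by distance of the window centre from the Fgf9 gene position in kb, for testis (blue circles) and ovary (red squares). Both gonads fall to 0 active coverage in the windows from 50 to 10 kb below the gene, and the Polycomb share of the ovary peaks at 59% at the gene.

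Active stretches, runs of promoter and active enhancer bins, were more often private to 1 gonad above the gene than below it. Of 57 active stretches of at least 400 bp in the testis, 20 (35.1%) shared no base with an active bin of the ovary, against 31.9% of such stretches over the genome. Of 43 in the ovary, 11 (25.6%) shared none with the testis, against 39.1% over the genome. The testis share was thus near the genome's and the ovary share below it. Above the gene, 13 of 16 testis stretches and 5 of 9 ovary stretches were private, and below it 7 of 41 in the testis and 6 of 34 in the ovary. The stretches above were also shorter, with medians of 600 bp in the testis and 800 bp in the ovary above the gene, against 1200 bp and 1400 bp below it. Active chromatin was also sparser above the gene, 6.38% in the testis and 4.95% in the ovary, against 32.4% and 36.9% below it. How far length and sparseness account for the contrast was not tested, and the genome shares are not from regions of like density.

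The private stretches nearest above the gene lay close together in the 2 gonads. One of the testis ran from 58699801 to 58700400, 9.8 kb above the gene position, and one of the ovary from 58700801 to 58701600, 10.8 kb above it. They were 400 bp apart, and a further single active bin of the testis adjoined the ovary stretch. The testis had further private stretches at 16.0 kb, 28.6 kb, 34.4 kb, 42.0 kb and 48.0 kb above the gene position. Of these, those at 16.0, 28.6, 34.4 and 42.0 kb were poised enhancer in the ovary over their whole length, and the nearest active bin of the ovary to the one at 42.0 kb was 8000 bp away. The next private stretch of the ovary lay 66.4 kb above the gene position, 600 bp long and poised in the testis over its whole length. Of all private bases, 61.1% of those of the testis were poised enhancer in the ovary, and 70.0% of those of the ovary were poised enhancer in the testis. The same shares over the genome were not computed, and poised enhancer coverage of the window was above that of the genome in both gonads.

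Many private stretches had an active bin of the other gonad close by. Within 1 kb this was so for 11 of 20 private stretches of the testis and 8 of 11 of the ovary. With none allowed within 1 kb, 9 testis and 3 ovary stretches were left. Genome shares under this 1 kb rule were not computed, so these counts have nothing to be set against. Bins active in the testis and not in the ovary made up 8.05% of the window, against 3.93% of the genome. Bins active in the ovary and not in the testis made up 9.45% of the window and 6.28% of the genome. The active total was also higher in the window than in the genome in both gonads.

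State by state, 46.8% of the bins of the window were in the same state in testis and ovary, and 53.2% differed, against 48.3% that differed over the genome. Of the 400 kb windows, 4394 of 6235 had a higher share in the same state. The Jaccard index, the bases in a state in both gonads over those in it in either, was 0.657 for the bivalent state, against 0.231 over the genome. It was 0.294 for the promoter state, against 0.445, and 0.251 for the Polycomb state, against 0.295. For the active enhancer state it was 0.339, against 0.359, and for the poised enhancer state 0.254, against 0.222. The bivalent state had the widest margin over its genome value among these 5 states, and that value rests on 35 bins.

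Promoter segments outside the bivalent domain lay below the gene, apart from 1 of the ovary. That one had 200 bp, from 58717601 to 58717800, and was active enhancer in the testis. The gonads shared promoter bins at 3 places. At the first, the testis segment ran from 58507601 to 58509800 and the ovary segment inside it from 58508001 to 58509200. At the second, both segments began at 58534401, with 200 bp in the testis and 600 bp in the ovary. At the third, the testis had segments from 58617201 to 58617800 and from 58618201 to 58618600, and the ovary 1 from 58617401 to 58618400. The testis had 4 further segments between 58529201 and 58540800, all active enhancer in the ovary. The ovary had 1 further segment, from 58604601 to 58605000, which was poised enhancer in the testis. No mouse gene models were used, so these segments are not assigned to genes.

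In the mole, FGF9 had 1 model and no copy under its name. It lies on the minus strand of talOcc3 scaffold 38, from 11731991 to 11761319, a span of 29.3 kb. Its 3 exons are coding: exon 1 from 11761043 to 11761319 (277 bp), exon 2 from 11751689 to 11751792 (104 bp) and exon 3 from 11731991 to 11732233 (243 bp). They add up to 624 bp, or 208 codons. The first intron has 9250 bp and the second 19455 bp. The model was built with exonerate, an aligner of known sequences to a genome, per the source column of the file, and it matched positions 838 to 1461 of its target. It holds no untranslated regions, so the distances below run from the ends of the coding sequence.

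The 2 sides of the mole gene were unlike in gene content. Upstream, towards the start of the gene, 27 models lay within 2 Mb, 13 of them within 1 Mb. Downstream there were 4 within 2 Mb and 0 within 1 Mb. The nearest upstream was MICU2, a regulator of the mitochondrial calcium uniporter, 132.3 kb away, on the opposite strand and so head to head with FGF9. The nearest downstream was RUBCNL, which acts in autophagy, 1326 kb away. Of 16541 gaps between adjoining models with at least 2 exons, 97 (0.586%) were longer than the one between FGF9 and RUBCNL. The median gap was 19 kb and the longest 4570.9 kb. The gap between FGF9 and MICU2 was passed by 13.7% of gaps.

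After MICU2 came ZDHHC20, an enzyme that attaches palmitate to proteins, 216.8 kb from FGF9 with 13 exons. MRPL57, a protein of the mitochondrial ribosome, was 311.1 kb away and had 1 exon. SKA3, a kinetochore protein, was 320.6 kb away with 4 exons. SAP18, a subunit of the Sin3 co-repressor complex, was 340.5 kb away with 4 exons. MICU2, ZDHHC20 and SKA3 lay on the plus strand, MRPL57 and SAP18 on the minus strand with FGF9.

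Beyond these, between 414.3 kb and 1958.2 kb, came SYPL1, LATS2 (a kinase of the Hippo pathway), RPL12, 2 models of XPO4 (a nuclear export receptor), EEF1AKMT1, IL17D (a cytokine) and IFT88 (a protein of cilium assembly). CRYL1, XYLB, LOC107986724, the connexins GJB6, GJB2 and GJA3, PSMC6, ZMYM2, ZMYM5, PSPC1, MPHOSPH8, RPL9, PARP4 and VDAC2 followed. The 2 XPO4 models, with 5 and 18 exons, lay next to each other on the same strand, 646.1 kb and 684.3 kb from FGF9. A single gene annotated in 2 pieces and 2 genes cannot be told apart from the models. Of the 27 upstream models, 10 had 1 exon, among them the 3 connexins. The most exons were in PARP4, with 27, and in IFT88 and ZMYM2, with 24 each. Models with 1 exon or with a copy number in their name can be uncertain as genes of this place, and 6 of the 27 had such a number. Those were the models named here as RPL12, XYLB, LOC107986724, RPL9 and VDAC2, and the XPO4 model with 5 exons. MRPL57, GJB6, GJB2 and GJA3 have 1 exon in the models but are among the genes listed for this side of FGF9 in human.

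Downstream, all 4 models had several exons. RUBCNL had 13 exons on the plus strand. LRCH1 had 19 exons on the minus strand, 1533 kb from FGF9. ESD, which encodes esterase D, had 8 exons on the minus strand, 1654.3 kb away. HTR2A, a serotonin receptor, had 3 exons on the plus strand, 1767.6 kb away. The closest model left out by the limit of 2 Mb was CCDC59 at 2005.5 kb downstream, with 1 exon, and upstream an unnamed model with 1 exon at 2054.1 kb. The farthest models kept were a VDAC2 model with a copy number and 1 exon, at 1958.2 kb upstream, and HTR2A downstream.

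**Figure D5:**
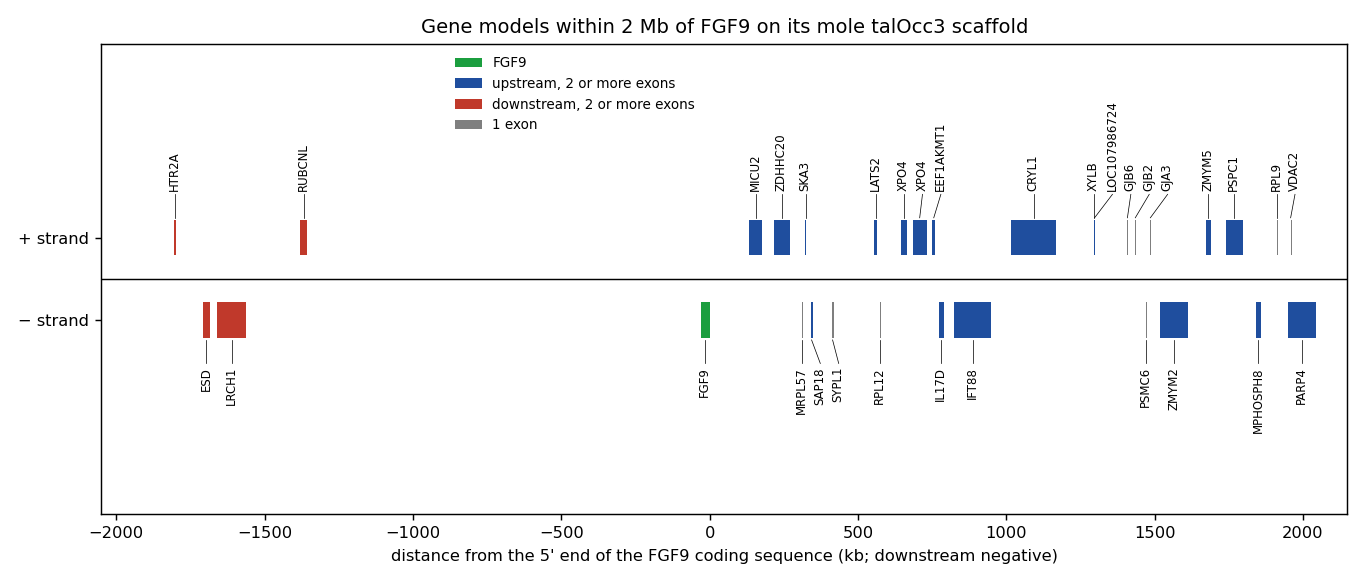
Gene models within 2 Mb of FGF9 on talOcc3 scaffold 38, by distance in kb from the 5' end of the FGF9 coding sequence (downstream negative), with plus-strand models above the line and minus-strand models below it. Upstream models begin with MICU2 at 132.3 kb, and downstream no model lies nearer than RUBCNL at 1326 kb from the 3' end of FGF9.

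The upstream neighbours were compared with those of the human gene, as known from textbook maps. In human, MICU2 and the genes that follow it lie on one side of FGF9. Of 18 genes listed for that side, 18 had a model upstream of the mole gene within 2 Mb, and 0 had one downstream of it on its scaffold. Of the 18, 14 had a model with at least 2 exons.

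The reference gene table is of another mole assembly, MPIMG_talOcc4v2.1, and so of the same species. By name it gave the same neighbours. Of the 5 named protein-coding genes on each side of FGF9, 5 of 5 upstream were the same in the same order as in all named talOcc3 models. Downstream 4 of 5 were, and 5 of 5 when models with 1 exon were left out, since CCDC59 stood in the place of SUCLA2. With those models left out, 4 of 5 were shared upstream, where MRPL57 has 1 exon. Between FGF9 and RUBCNL the table lists 4 entries, all long non-coding RNAs, and between FGF9 and MICU2 1, also a long non-coding RNA.

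The other genes of the pathway were found in the talOcc3 models as follows. Of 21 FGF ligand names, 18 had a model, each with 1, and FGF2, FGF3 and FGF19 are not named there; the reference table names 20, all but FGF2. Of the 18 ligand models, 12 had 3 exons, FGF9 among them. FGF16 and FGF20 form a subfamily with FGF9; FGF20 also had 3 exons, and the FGF16 model had 5. The coding sequence was 633 bp in FGF20 and 642 bp in FGF16, against 624 bp in FGF9. Of the receptors, FGFR2, the receptor that FGF9 uses in the mouse gonad, had 17 exons on scaffold 11 and FGFR3 had 7 on scaffold 10. FGFR1 had 18 and FGFR4 17, and FGFRL1 is not named in the models. Of the co-receptors for endocrine FGFs, KL had 3 exons and KLB 5. Exon counts and coding lengths are those of the models, and whether each model holds the whole gene was not checked.

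Of 18 partners in gonad sex determination, 16 had 1 model each, and none lay on the scaffold of FGF9. SOX9, the testis factor that FGF9 sustains in the mouse, had 1 exon over 841 coding bp on scaffold 28. That length is not a whole number of codons, so the model may hold only part of the gene. WNT4, the ovarian signal that FGF9 opposes, had 4 exons on scaffold 2. Its 979 coding bp are also not a whole number of codons. MAP3K4, a kinase upstream of Sry in the mouse, had 29 exons on scaffold 31. FOXL2 and PTGDS are not named in the talOcc3 models and are in the reference table. A name missing from the models does not show that the gene is missing from the genome.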

How the data were processed

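The members and gene lists were chosen with earlier results of these data known. Each mouse gonad has 1 segmentation deposited by the authors. It was made with EpiCSeg, per the file headers, and gives 1 of 7 state names to each stretch of 200 bp bins. STAR 2.6.1d and build mm9 are listed in the submitters' processing notes, with no role stated. The deposited gene models come from EVM, exonerate and ALN, per the source column of the file. No source used here gives versions for these.

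State shares, state pairs, runs of a state and gaps between gene models were computed with Python 3.11.15 and numpy 2.4.6, and interval arithmetic was tested on simulated segmentations. Windows with 50% or more of gap state in either gonad were left out of the genome comparison. Distances between genes run between nearest ends. The named genes were FGF9, all models within 2 Mb (5 nearest on each side in full) and lists of flanking, FGF pathway and sex determination genes. CCDC59 and SUCLA2 were added after their positions were seen. The comparison with human genes on the downstream side is not reported here. With 1 segmentation per gonad there is no test, and depth is unknown. Reference positions were used for order only. Sequences are not shown. The mole state tables were not used.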

Additional observations from a re-analysis of the deposited data

How the results depend on the processing

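No paired analysis was possible because the mouse segmentations carry no replicate and no labelled sample. Of 42 values recomputed under the alternatives, 34 moved. In the 100 kb around the gene position, testis and ovary had 0.20% and 0.20% of promoter, 4.8% and 6.8% of bivalent promoter, 6.0% and 1.8% of active enhancer, 35.2% and 26% of poised enhancer, 23% and 34.8% of Polycomb, 23% and 22.4% of undefined and 7.8% and 8.0% of gap state, and 53.2% of bins agreed. The higher gonad in active enhancer coverage was thus the testis here and the ovary over 400 kb. Without bins that were gap or undefined in either gonad the shares were 2.40% and 1.63% of promoter, 2.31% and 3.27% of bivalent promoter, 29.3% and 33.3% of active enhancer, 43.2% and 33.6% of poised enhancer and 22.8% and 28.3% of Polycomb state, and 57.0% of the bins left agreed. Private active stretches numbered 36 in the testis and 15 in the ovary with a minimum of 200 bp, 6 in the testis and 4 in the ovary with 1000 bp, and 9 and 3 when none of the other gonad was allowed within 1 kb. Genome shares of private stretches were not computed under these alternatives. Models upstream of FGF9 numbered 17 with at least 2 exons and 13 within 1 Mb, and 0 lay within 1 Mb downstream. For the values that moved the cause was not tested. Unknown depth, 1 call set per gonad and models found by name limit all of these values.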
